A study of Felis catus with 2 samples.

Results

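Interferon response genes are the genes that cells switch on when interferon, a cytokine released on viral infection or tissue damage, binds its receptors. Their values were taken from RNA of the iridocorneal angle of 2 cats, 1 normal cat and 1 cat affected by primary congenital glaucoma (PCG). The rule named 9 genes: IFI6, ISG15, MX1, STAT2, IRF1, IRF7, IRF9, TAP1 and B2M. Of these, 8 stand under exactly that name among the 19998 names and identifiers of the deposited table, and where a name is repeated the row with the higher mean was used. IRF9 is listed only in a row that joins it to a second identifier. ISG15 is listed at 0 in both libraries, so 7 of the 9 genes carried a usable value. The genes were chosen by their values in these libraries, the log2 ratios between the cats included, so what follows is a description of these 2 libraries.

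Both cats were juvenile and of the same age, and the normal cat was unrelated to the affected one. Affected cats of the study came from a colony founded by glaucomatous Siamese cats that carries a mutation in LTBP2, a gene of the extracellular matrix. The dissected piece held the angle together with ciliary body, neighbouring sclera and trabecular meshwork, the sieve-like tissue through which aqueous humor leaves the eye. Polyadenylated RNA was sequenced from 1 library per condition, so no difference has a replicate check and no p-value was calculated. Disease, animal and dissection cannot be told apart.

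Type I interferons act through a receptor (IFNAR) and the kinases JAK1 and TYK2, which activate STAT2. STAT2 takes part with IRF9 in a complex that binds interferon-stimulated response elements and turns on antiviral effectors such as MX1 and ISG15. Interferon-gamma raises, in part through IRF1, proteins of antigen presentation by MHC class I molecules, among them TAP1 and B2M. The anterior chamber of the eye is known as an immune-privileged site.

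Values are FPKM, fragment numbers divided by exon length and by library size, as the authors calculated them with Cufflinks for 32065 loci. Pairs of values give the normal library first. Log2 ratios are log2 of (affected + 1) over (normal + 1), which understates the difference of low genes, and the 16676 loci that reached 1 FPKM in either library were used. Their median log2 ratio was −0.0047. At least 2-fold higher on this scale in the affected library were 8.14% of them, and 8.75% were at least 2-fold lower. Steps between low values showed what a single fragment was worth on 1 kilobase of effective length, 0.0141 FPKM (normal) and 0.0148 FPKM (affected). This scale gives the counting error of each gene if its transcript had an effective length of 1 kilobase. The intervals below are 95% intervals of that kind, they cover counting error only, and they do not include the variation between cats.

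All 7 genes with a usable value were higher in the affected library, where 49.7% of all loci used were higher. IFI6, IRF7, IRF1 and B2M were at least 2-fold higher, or 4 of 7 where 8.14% of all loci used were, and none was lower. The median log2 ratio of the 7 genes was 1.15, and it ran from 0.054 for TAP1 to 4.33 for IFI6. With a 1.5-fold threshold 5 of 7 passed, where 17.6% of all loci did. Because these ratios were in view when the genes were chosen, the count describes the choice and nothing was read from it.

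**Figure D1:**
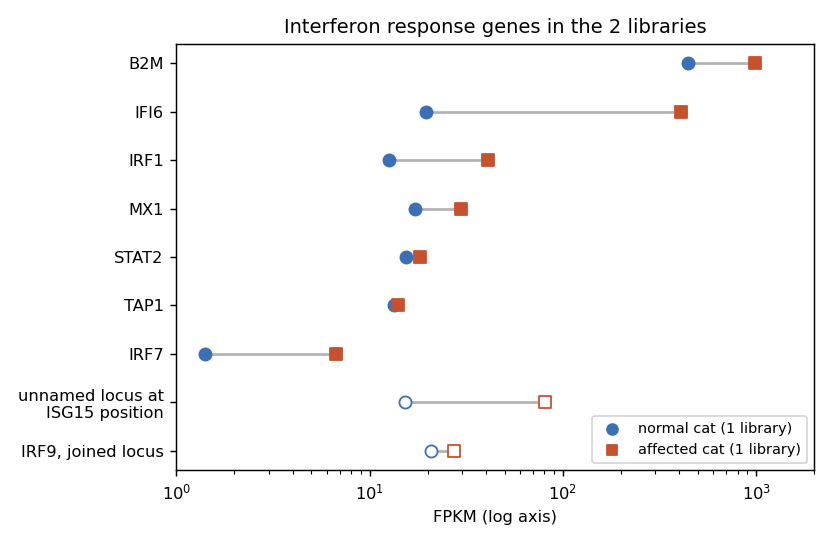
Level of each member in FPKM (log axis) in the normal library (circles) and the affected library (squares), with 1 library per condition and no error bars. Filled symbols are rows named for 1 member, and open symbols are the unnamed locus overlapping the ISG15 interval and the row that joins IRF9 to another identifier. ISG15 itself is listed at 0 in both libraries and is not drawn. The longest line is that of IFI6, from 19.5 to 410.3 FPKM, and the shortest are those of TAP1 and STAT2.

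The 2 effectors with a value differed in size. IFI6, a small interferon-induced protein of mitochondria and the endoplasmic reticulum (chromosome C1 of felCat5, 19914164 to 19919468), had 19.5 FPKM (normal) and 410.3 FPKM (affected). That is 21.1-fold (19.96 to 22.2), and 29 loci of those used had a higher log2 ratio. The IFI6 level exceeded 73.3% (normal) and 98.7% (affected) of the loci. MX1, a dynamin-like GTPase that blocks virus replication (C2, 4445128 to 4471868), had 17.2 and 29.8 FPKM, or 1.73-fold (1.61 to 1.86). The log2 ratio of MX1 was 0.76, below the 2-fold threshold, and 2060 loci had a higher one. The 2 genes therefore stood at nearly the same level in the normal library, with 1.13 times as much IFI6 as MX1, and 13.8 times as much in the affected library.

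ISG15, a ubiquitin-like protein that is attached to other proteins after interferon exposure, was listed at 0 in both libraries. Its row lies on scaffold JH408690.1 from 118884 to 132608. The table lists 41 loci under that scaffold name, and all 41 stand at 0 in both libraries. The same is true of all 361 named loci on unplaced scaffolds written in this form, against 18.2% of the named loci elsewhere. A second scaffold name that holds the same number, C1_JH408690_random, carries 72 loci, none with a gene name and none at 0 in both libraries. Of the 41 named intervals, 35 overlap 1 or more of these unnamed loci when their positions are set side by side. No scaffold name with the suffix random carries a named locus, over 323 loci. That both names stand for 1 sequence was not tested here, because no genome of this build was used, and the 0 listed for ISG15 is therefore not read as absence of its mRNA.

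A single unnamed locus overlapped the ISG15 interval, at its end. It spans 1343 bases, from 131470 to 132812, and ends 204 bases past the end of the ISG15 row. Its level was 15.2 FPKM (normal) and 81.1 FPKM (affected), or 5.33-fold (4.99 to 5.69). The log2 ratio of 2.34 was the highest of the 45 loci of that scaffold that reached 1 FPKM, whose median was 0.0034, and the next highest was 1.59. It exceeded the log2 ratios of 99.0% of all loci used. The locus was found by position after the values had been seen, and it is kept out of the counts of members.

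**Figure D2:**
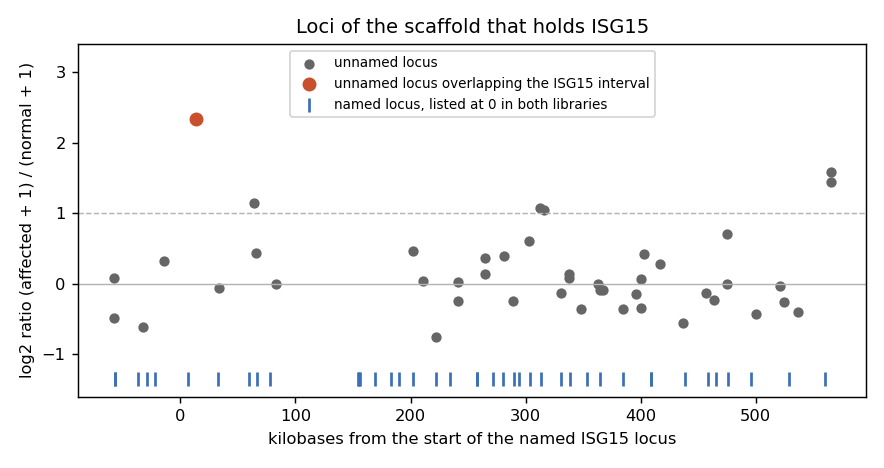
Log2 ratios of the 45 unnamed loci on C1_JH408690_random that reached 1 FPKM, against the distance of their middle in kilobases from the start of the named ISG15 row. Ticks at the bottom mark the 41 named loci of JH408690.1, all listed at 0. The orange point, the unnamed locus overlapping the ISG15 interval, stands highest at 2.34, and the dashed line marks a 2-fold difference.

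Among the transcription factors, IRF7 and IRF1 differed more than STAT2. IRF7, which amplifies the expression of type I interferons (D1, 116463083 to 116465748), had 1.41 FPKM (normal) and 6.68 FPKM (affected). That is 4.73-fold (3.81 to 5.87), the widest interval of the members relative to the fold, since the normal value rests on about 100.2 fragments per kilobase. IRF7 was the lowest of the 7 genes in both libraries, and its level exceeded 12.8% (normal) and 44.5% (affected) of the loci.

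IRF1, the factor behind many interferon-gamma targets, had 12.6 FPKM (normal) and 41.1 FPKM (affected). The fold was 3.26 (3.02 to 3.51) and the log2 ratio 1.63. The name IRF1 stands on 2 rows with the same interval (A1, 110008359 to 110128895), an interval that a row named IL5 and 4 unnamed loci share. The second row had 9.89 and 11.9 FPKM, a log2 ratio of 0.25. The table does not say which of them holds the IRF1 transcript, the library kit does not mark strand, and with both rows summed (22.5 and 53.0 FPKM) the log2 ratio was 1.20.

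STAT2, which carries the signal from the type I receptor to the nucleus (B4, 85279920 to 85298979), had 15.3 FPKM (normal) and 18.2 FPKM (affected), 1.19-fold (1.09 to 1.29). The row that joins IRF9, its DNA-binding partner, to ENSFCAG00000005586 (B3, 76110044 to 76129991) had 20.7 and 27.3 FPKM, 1.32-fold (1.23 to 1.41), and how much of it is IRF9 was not analysed here. STAT2 and this joined row thus differed by less than MX1 did.

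The antigen presentation members differed from each other as well. B2M, the light chain that every MHC class I molecule carries (B3, 60732108 to 60738051), was the most abundant member, with 444.0 FPKM (normal) and 987.3 FPKM (affected). It was 2.22-fold higher (2.19 to 2.25), and its level exceeded 98.9% and 99.4% of the loci. B2M alone made up 84.8% (normal) and 65.5% (affected) of the members' summed FPKM. TAP1, a chain of the pump that carries peptides into the endoplasmic reticulum (B2, 34536792 to 34550131), had 13.4 and 13.97 FPKM. The fold of TAP1 was 1.04 (0.95 to 1.14), an interval that includes 1.

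**Figure D3:**
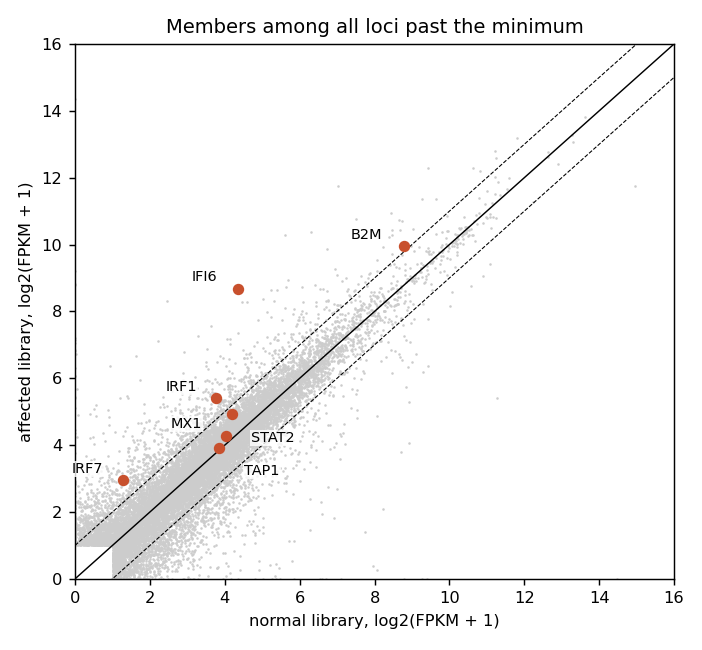
All 16676 loci that reached 1 FPKM in at least 1 library (grey), with the normal library on the horizontal and the affected library on the vertical axis, both as log2(FPKM + 1). Orange points are the 7 members with a usable value, the solid line is equality and the dashed lines are 2-fold differences. TAP1 and STAT2 lie near equality, MX1 lies between the lines, and IFI6, IRF1, IRF7 and B2M lie above the upper one.

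The other genes of the pathway were taken from lists ordered by role. These lists too were chosen with earlier results of these data known, so their counts are a description. Over 8 such lists, 93 of 123 gene names were listed and 79 reached 1 FPKM. In the affected library 58 of these were higher and 21 lower, with a median log2 ratio of 0.31 against −0.0047 for all loci. At least 2-fold higher were 10 of 79, or 12.7% against the 8.14% of all loci, and 1 was at least 2-fold lower. IDO1 and CCL5, which reached 1 FPKM only in the affected library, are among the 10. These counts hold with 1 FPKM added. Without it more genes pass in both directions, among them CXCL10 (2.11-fold) and IRF8 (0.41-fold).

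The interferons themselves were listed at or near 0, which is not read as absence. The table lists 8 interferon loci, and 6 of them, IFNB1, IFNG, IFNK, IFNA7, IFNW11 and IFNW12, stand at 0 in both libraries. IFNA13 and IFNE were listed at 0 in the normal library and at 0.036 and 0.031 FPKM in the affected library. The 3 receptor chains that reached 1 FPKM were lower in the affected cat. IFNAR1 had 41.7 FPKM (normal) and 27.2 FPKM (affected), IFNGR1 46.1 and 32.5 FPKM, and IFNGR2 38.5 and 31.4 FPKM. IFNLR1, the receptor chain for the lambda interferons, stayed below 1 FPKM, with 0.36 and 0.91 FPKM.

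Signal carriers differed little. In the JAK-STAT list 7 of 8 genes were higher and none reached 2-fold, with a median log2 ratio of 0.27. JAK1, a kinase bound to the receptor chains, had 31.7 FPKM (normal) and 38.7 FPKM (affected). SOCS3, a feedback inhibitor of cytokine receptors, was the exception, with 4.32 and 3.47 FPKM.

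The other IRF factors were split, with 4 higher and 3 lower among 7 and a median log2 ratio of 0.24. IRF3, which is present before infection and activated by phosphorylation, had 24.3 and 35.7 FPKM. IRF8, a factor of macrophages and dendritic cells, was lower, with 5.20 FPKM (normal) and 2.12 FPKM (affected). Among 10 sensors and adaptors of foreign nucleic acids, 7 were higher and 1 passed 2-fold, or 10% against 8.14% of all loci. That gene was DHX58, a regulator of the RIG-I pathway, with 4.44 and 17.1 FPKM. DDX58 (RIG-I itself) had 6.17 and 6.45 FPKM, and the adaptor MAVS had 16.6 and 22.2 FPKM. The 3 lower genes included IKBKE, with 2.29 and 0.80 FPKM, and MB21D1, with 1.33 and 0.44 FPKM. Both were picked after their values had been seen, and both reached 1 FPKM only in the normal library.

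The antiviral effectors outside the members were mostly higher too. In the affected cat 26 of 33 genes were higher and 6 were at least 2-fold higher, or 18.2% against 8.14% of all loci, and their median log2 ratio was 0.47. IFI44L had 8.61 FPKM (normal) and 41.1 FPKM (affected). LGALS3BP, a secreted glycoprotein, was the most abundant of the list, with 92.4 and 406.0 FPKM. DDX60, a helicase that assists RIG-I, had 1.70 and 6.79 FPKM. IFIT3, which binds viral RNA with its relatives, had 3.38 and 8.91 FPKM. BST2, the tether that holds budding virus to the cell surface, had 24.9 and 53.3 FPKM. The only gene of this list at least 2-fold lower was APOBEC3H, a cytidine deaminase, with 11.7 and 3.38 FPKM.

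Of the 33 genes 7 were lower, and most of the rest were higher by less than 2-fold. Among the latter were OAS1, whose product activates RNase L through a second messenger, with 9.30 and 13.5 FPKM, and its relative OAS2, with 4.17 and 7.45 FPKM. Some genes were nearly level. RSAD2, below 1 FPKM throughout, had 0.75 FPKM (normal) and 0.74 FPKM (affected), IFI35 had 50.9 and 53.1 FPKM, and EPSTI1 had 5.81 and 5.93 FPKM. EIF2AK2 (PKR), the kinase that stops translation on double-stranded RNA, was lower, with 2.35 and 1.61 FPKM. These genes, of which IFI35 alone falls under the rule for named genes, were picked after their values had been seen. The enzymes that attach ISG15 to proteins were also picked as a set in this way, although UBE2L6 and HERC5 fall under that rule. Of the conjugation enzymes, the E1 enzyme UBA7 had 10.6 and 20.02 FPKM, the E2 enzyme UBE2L6 had 32.6 and 49.8 FPKM, and the E3 ligase HERC5 had 1.67 and 4.88 FPKM, so all were higher in the affected library and HERC5 alone passed 2-fold.

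**Figure D4:**
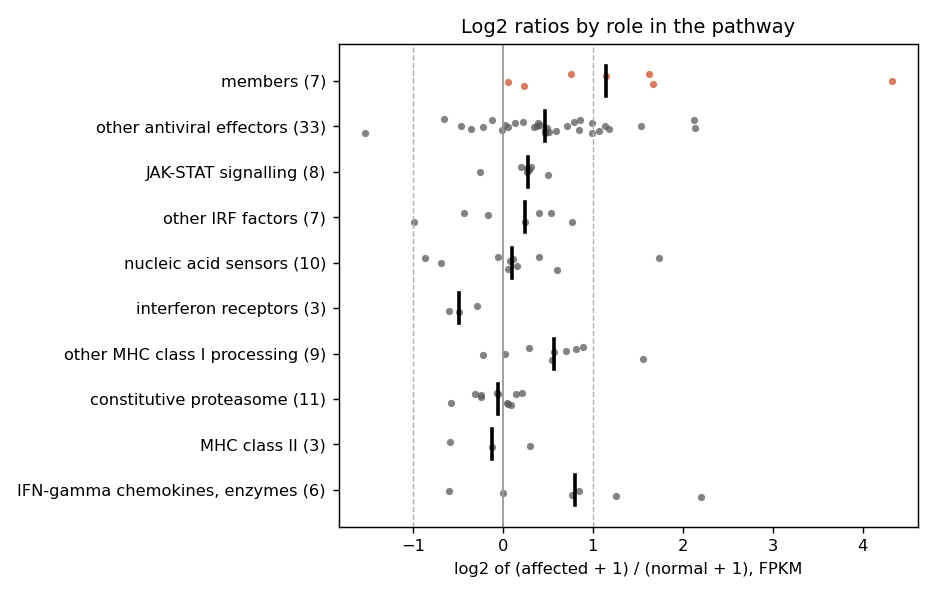
Log2 ratios of the genes that reached 1 FPKM, 1 point per gene, by role, with the number of genes in parentheses. Black bars are list medians, the grey line is the median of all loci, and dashed lines mark 2-fold differences. The members, chosen with these ratios in view, have a median of 1.15. Among the other lists the interferon receptors have the lowest at −0.49, and most antiviral effectors lie between equality and 2-fold.

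Around TAP1 and B2M, the genes of MHC class I processing were mostly higher. Of 9 other genes, 8 were higher and 1 was at least 2-fold higher, or 11.1% against 8.14% of all loci, with a median log2 ratio of 0.57. CALR, the most abundant of them, was the 1 lower gene, with 554.5 FPKM (normal) and 476.0 FPKM (affected). PSME2 was nearly level, with 35.0 and 35.5 FPKM. PDIA3 had 148.3 and 216.6 FPKM, and CANX had 122.3 and 182.4 FPKM. The gene past 2-fold was PSMB9, a subunit of the immunoproteasome that cuts peptides for class I molecules, with 2.72 FPKM (normal) and 9.94 FPKM (affected). PSMB9 is listed with the same interval as TAP1, and without strand any overlapping reads cannot be assigned, yet the log2 ratios were 1.56 and 0.054. TAP1 thus stood at 4.94 times the PSMB9 level in the normal and at 1.40 times in the affected library. PSMB8, the partner subunit, had 7.62 and 14.997 FPKM, and NLRC5, the activator of class I genes, had 0.50 and 1.45 FPKM. PSMB10, the third immunoproteasome subunit, and TAPBP, which holds class I molecules at the peptide pump, stand only in rows joined to other names. The row with PSMB10 was lower, with 2.56 and 1.34 FPKM, and the row with TAPBP had 35.6 and 71.5 FPKM. The 11 constitutive proteasome subunits had a median log2 ratio of −0.054, and none of them reached 2-fold in either direction.

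The heavy chains that pair with B2M were not on a list and were looked up after the values had been seen. FLA-I, the name of the feline class I heavy chain locus, had 66.4 FPKM (normal) and 423.8 FPKM (affected), 6.39-fold. FLA-Z had 9.41 and 40.3 FPKM. Class I genes are close copies of each other, so the reads can be shared among them and single values are uncertain. The B2M level was 6.69 times that of FLA-I in the normal and 2.33 times in the affected library, so the light chain differed by less than this heavy chain did.

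MHC class II genes, which mark antigen-presenting cells, were split. Of 3 genes past the minimum, 1 was higher and 2 were lower, with a median log2 ratio of −0.12. CD74, the invariant chain of class II, had 82.1 and 101.3 FPKM, and HLA-DMA had 11.2 and 10.2 FPKM. HLA-DOA, which reached 1 FPKM only in the normal library, had 1.60 and 0.72 FPKM. The activator CIITA stayed below 1 FPKM, with 0.76 and 0.72 FPKM. FLA-DRB, a class II chain looked up with FLA-I and FLA-Z, had 73.7 and 61.8 FPKM. Among 6 chemokines and enzymes induced by interferon-gamma, 5 were higher and 2 passed 2-fold, or 33.3% against 8.14% of all loci. IDO1, which breaks down tryptophan, had 0.93 and 7.92 FPKM, and CCL5 had 0.17 and 1.80 FPKM. Both reached 1 FPKM only in the affected library, so the minimum helped to set the 33.3% and nothing was read from it. The same holds for CXCL9, which was higher, with 0.82 and 2.09 FPKM, and was picked after its values had been seen. CXCL10 had 2.48 and 5.24 FPKM, while WARS, the most abundant gene of that list, had 37.0 and 37.1 FPKM.

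Bulk tissue does not separate fewer cells of a type from less RNA per cell, and interferon response genes are expressed in many cell types, so markers were measured beside the members. The markers of trabecular meshwork and ciliary epithelium were present in both libraries, among them MYOC at 149.7 and 301.5 FPKM and OPTC at 351.0 and 1235 FPKM. The trabecular meshwork sum was 829.6 and 814.7 FPKM, but its largest part was not the same gene in the 2 libraries. In the normal library it was MGP, with 454.9 and 52.9 FPKM. In the affected library it was TIMP3, with 161.7 and 353.9 FPKM. Apart from MGP, the other 5 of the 6 trabecular meshwork markers were higher and 4 of them at least 2-fold, among them CHI3L1 at 0.85 and 32.0 FPKM. The median log2 ratio of the list was 1.07. Of 24 macrophage and leukocyte markers, 21 were listed and 9 reached 1 FPKM, of which 5 were higher and 4 lower. The summed level of the 21 was 100.6 FPKM (normal) and 117.9 FPKM (affected), 1.17-fold. TYROBP, an adaptor of myeloid receptors, made up much of it, with 59.2 and 66.7 FPKM, and without it the sums were 41.4 and 51.2 FPKM. The members summed to 523.5 and 1507 FPKM, a difference that their choice fixed and that says nothing about their cells of origin. PTPRC, the pan-leukocyte surface marker, had 2.13 FPKM (normal) and 1.23 FPKM (affected), and LYZ was listed at 0 in both. CD163, a marker of tissue macrophages, was the single marker of the 9 past 2-fold on the log2 scale with 1 added, with 3.67 and 13.0 FPKM. T cell and cytotoxic markers were low, with CD3E at 1.28 and 3.26 FPKM, 2.55-fold without the added 1, and CD8A at 0.24 and 0.28 FPKM.

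The sums of corneal, endothelial, photoreceptor and ciliary markers differed by more than the leukocyte sum. All 10 corneal and conjunctival epithelium markers were lower in the affected cat, with summed levels of 605.1 and 32.7 FPKM. Of 10 vascular endothelium markers 9 were lower, with sums of 196.8 and 82.9 FPKM. All 8 photoreceptor markers were higher, with sums of 409.0 and 1661 FPKM, and the ciliary epithelium sum was 2210 and 4838 FPKM. The ciliary list went both ways, with 4 of 7 markers at least 2-fold higher and 2 at least 2-fold lower, CA2 at 370.2 and 111.9 FPKM and GJA1 at 682.7 and 216.6 FPKM. The members were higher while the endothelial and corneal markers were lower and the photoreceptor markers were higher, and the part of these tissue differences in the interferon response values was not tested.

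**Figure D5:**
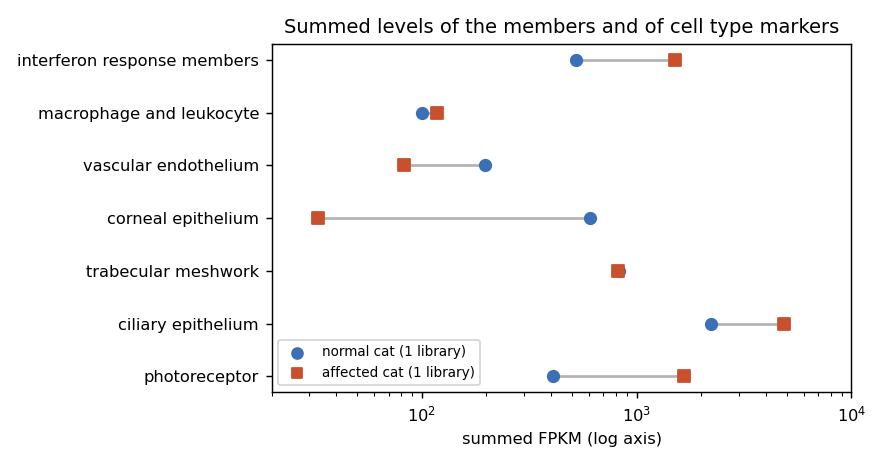
Summed FPKM (log axis) of the members and of 6 lists of cell type markers in the normal (circles) and affected (squares) library, 1 library each. The leukocyte sum is 100.6 and 117.9 FPKM, of which TYROBP alone is 59.2 and 66.7 FPKM, the corneal and endothelial sums are lower in the affected library, and the photoreceptor sum is higher.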

How the data were processed

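Polyadenylated RNA of 2 libraries, 1 normal and 1 affected, was analysed. Groups came from the disease state in the labels. Reads were aligned by the authors with TopHat 2.0.9, guided by Ensembl gene predictions, to the felCat5 build, and the deposited values are FPKM from Cufflinks 2.1.1 and cummeRbund, 1 value per locus and library. The filters on loci and the scaling between the libraries are not given in the sources used here. Count models were not applied to FPKM.

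From the FPKM, log2 ratios were calculated with a pseudocount of 1, over those loci whose higher value reached 1 FPKM. Names were matched exactly, and rows that join several names were not assigned to single genes. Interval starts, counted from 0 in the table, were raised by 1. The members and all lists were chosen with earlier results of these data known. From each list the 4 genes with the highest mean and those past 2-fold could be named. IFNB1, IFNG, IFNE, IFNK and the other interferons, SOCS3, IRF8, DDX58, PSMB8, NLRC5, PTPRC, CD3E, CD8A and LYZ fall outside this rule and were named after their values had been seen, and others of that kind are marked in the text. With 2 libraries a pattern is a single ratio, so no genes of like pattern were sought.

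The value of 1 fragment came from low, unnamed loci whose interval was taken as the transcript. Of 1183 such loci in the normal library 96.7% lay within 0.03 of a whole fragment, and of 894 in the affected library 96.6%. For a step fixed in advance 6% would be so by chance. The step and the effective length were chosen to make this share largest, so 6% is not the chance level of the fit. The scale was about 71000000 and 67600000 fragments. Both steps were tested on simulated data. Alternatives were a pseudocount of 0.1, 2 rescalings, other minimums, a 1.5-fold threshold, summed rows and means. Calculations used pandas 2.3.3 and numpy 2.4.6 in Python 3.11.15, and plots matplotlib 3.10.9. No sequences are shown, since no sequence tables were used here. The values of 1 gene are not reported here.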

Additional observations from a re-analysis of the deposited data

Results flagged for a closer look

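Signals stood in 3 rows that were kept out of the counts of members, each above its value in the normal library. The unnamed locus that overlaps the end of the ISG15 interval, and runs 204 bases past it, had 81.1 FPKM in the affected and 15.2 FPKM in the normal library. The row that joins IRF9 to a second identifier had 27.3 and 20.7 FPKM. The second row named IRF1 had 11.9 and 9.89 FPKM. With 1 library per condition none of these differences was tested.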

How the results depend on the processing

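All 7 members with a usable value stayed higher in the affected library under each pseudocount, rescaling and choice of rows tried, and of 28 recomputed single values 25 moved by less than 0.1 on the log2 scale. The exceptions were IRF7, at 2.16 (pseudocount 0.1) and 1.78 (each library rescaled to sum to 1000000), and IRF1, at 1.20 with its rows summed. TAP1 was the lowest member throughout, down to 0.0063 with that rescaling. The number of members at least 2-fold higher was 4, between 3 (a mean of at least 5 FPKM) and 5 (a 1.5-fold threshold, or the ISG15-interval and IRF9 rows added after the data were examined). The median log2 ratio of the members was 0.95 with no minimum, where ISG15 counts as a ratio of 0, 0.95 with a mean of at least 5 FPKM, which drops IRF7, 0.95 without IFI6, an alternative added after the data were examined, and 1.40 as a mean. The leukocyte marker sums were 155.0 and 175.2 FPKM after rescaling to a sum of 1000000, and 41.4 and 51.2 FPKM without TYROBP, also added later. The share of loci at least 2-fold higher was 11.9% with a pseudocount of 0.1, 4.24% with no minimum, and 7.62 to 8.54% otherwise at 2-fold, with 815 loci in place of 1358 when a mean of at least 5 FPKM was required and 2929 loci at 1.5-fold. The medians of the other pathway and class I genes moved by less than 0.1. By fragment number alone, precision was lowest for IRF7. No paired analysis was possible because there is 1 library for each condition.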
